A study of Mus musculus with 6 samples.

Results

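Chemokines are small secreted proteins that direct the migration of leukocytes and other cells along concentration gradients. They are sorted by the spacing of conserved cysteines into CC, CXC, XC and CX3C ligands, and they act on G protein-coupled receptors named by the class of ligand they bind. Macrophage migration inhibitory factor (Mif) has no chemokine fold, but it is secreted by many tumour cells and binds the chemokine receptors Cxcr2 and Cxcr4 beside its main receptor Cd74. Melanoma cells can release chemokines that recruit myeloid cells and T cells, and Cxcr4 and Ccr7 are known for their part in the spread of melanoma.

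The transcripts of this system were examined in RET cells, a mouse melanoma line labelled as C57BL\6 in strain. Cultures carried either Angpt2 shRNA-1, a short hairpin RNA against the gene for the secreted vascular ligand angiopoietin-2 (3 cultures), or a non-targeting shRNA (3 cultures, whose titles also carry the word GFP). Both were introduced by transduction, and the cells were seeded at equal numbers and grown for 24 h without other cell types. Total RNA of each culture was measured on its own Affymetrix Mouse Gene 2.0 ST array. The design holds 1 hairpin against Angpt2 and no rescue, so effects of Angpt2 loss and other effects of that hairpin cannot be told apart.

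Genes were taken as members when the platform annotation gave a row exactly 1 symbol made of Ccl, Cxcl, Ccr or Cxcr and a number, or Cx3cl1, Cx3cr1, Xcl1, Xcr1 or Mif. This gave 51 genes of 22180 named genes with a value on all 6 arrays, each with 1 row. They comprised 18 CC ligands, 13 CXC ligands, 2 ligands of the XC and CX3C classes, 9 CC receptors, 6 CXC receptors, 2 receptors of the XC and CX3C classes, and Mif. Measured values were normalized intensities on a linear scale, and the median over all rows of an array lay between 74.6 and 76.3. Intensity depends on each probe set as well as on its transcript, so the order of the members on this scale is an order of signals and not of transcript numbers.

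The labels could be checked against the cells. Angpt2 itself had intensities of 100.2, 122 and 122 in Angpt2 shRNA-1 cultures and 195, 372 and 326 in control cultures, a log2 fold change of -1.33 (SE 0.21). All 3 Angpt2 shRNA-1 arrays lay below all control arrays, but limma's adjusted p over all genes was 1.00. It was 0.046 with the replicate number as a block, and 0.0116 without control replicate 1, the lowest control array. All 8 melanocyte markers, among them Mitf, Tyr and Dct, stood above the array median on all 6 arrays, with intensities from 1224 to 9651. None of the 7 measured leukocyte markers did, and the pan-leukocyte gene Ptprc lay between 47.3 and 58.6. Summed over these leukocyte markers the intensity was 425 to 444 in Angpt2 shRNA-1 cultures and 419.5 to 465 in control cultures. Of 7 endothelial markers 0 stood above the median on all arrays, of 7 macrophage markers only the lysosomal gene Cd68 did, and of 6 fibroblast markers 4 did, with no value over 142. The summed intensity in Angpt2 shRNA-1 and in control cultures was 489.9 to 514 and 457 to 519 for the endothelial, 544 to 603 and 540.3 to 604 for the macrophage, and 479.9 to 508 and 482 to 533 for the fibroblast markers.

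Promoter sequence from RefSeq (GRCm38.p6) was matched for 37 of the 51 members, and 3 of these are shown because they belong to the secreted factor with the brightest signal and to a pair of neighbouring interferon-inducible ligands whose signals differed. Each runs 5′ to 3′ over the 250 bases before the annotated start, all on the minus strand, at chr10:75860278-75860527 for Mif, chr5:92348890-92349139 for Cxcl10 and chr5:92328080-92328329 for Cxcl9. Capitals mark matches, on either strand, to the core of the interferon-stimulated response element (GAAA, any 2 bases, GAAA), a kappaB motif (GGGA, any 2 bases, TTCC), the GC box (GGGCGG) and the TATA box (TATAAA).
Mif: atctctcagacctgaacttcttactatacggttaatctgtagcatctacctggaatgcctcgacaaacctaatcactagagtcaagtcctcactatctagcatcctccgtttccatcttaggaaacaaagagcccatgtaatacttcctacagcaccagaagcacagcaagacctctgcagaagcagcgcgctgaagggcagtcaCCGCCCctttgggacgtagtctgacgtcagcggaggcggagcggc
Cxcl10: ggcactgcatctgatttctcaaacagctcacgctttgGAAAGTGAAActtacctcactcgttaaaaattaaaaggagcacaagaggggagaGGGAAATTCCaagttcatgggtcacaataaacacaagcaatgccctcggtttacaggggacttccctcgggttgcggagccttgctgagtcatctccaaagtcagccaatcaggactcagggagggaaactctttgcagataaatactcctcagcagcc
Cxcl9: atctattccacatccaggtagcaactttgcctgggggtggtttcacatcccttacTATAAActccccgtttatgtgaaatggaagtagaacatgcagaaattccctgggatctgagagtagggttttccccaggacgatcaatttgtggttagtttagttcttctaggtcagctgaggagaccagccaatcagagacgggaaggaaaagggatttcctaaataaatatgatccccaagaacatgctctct

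The Mif window held 1 GC box, 45 to 40 bases before the start. The Cxcl10 window held an interferon element core 213 to 204 bases before the start and a kappaB match 159 to 150 bases before it, with no overlap between them. In the Cxcl9 window only a TATA box was marked, 195 to 190 bases before the start. The element core was present in 2.98% of 32851 promoter windows of this length and in those of 2 of the 37 members, Cxcl10 and Cxcl14. KappaB matches were present in 1.21% of windows and for 6 members, Ccl1, Ccr3, Cxcl1, Cxcl2, Cxcl3 and Cxcl10. GC boxes were present in 32.7% of windows and for 7 members, and TATA boxes in 12.4% and for 11. A match describes these letters and is not evidence of a bound factor.

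Of the 51 members, 12 stood above the array median on all 6 arrays, 20 on some and 19 on none. Over all named genes 51.2% stood above it on all 6 arrays and 32.4% on none. The 12 were Mif, the CC ligands Ccl2, Ccl5, Ccl20, Ccl25 and Ccl28, the CXC ligand Cxcl10, the CC receptor Ccr7, the CXC receptors Cxcr1, Cxcr3 and Cxcr4, and the fractalkine receptor Cx3cr1. By array, 23, 21 and 26 members were above the median in Angpt2 shRNA-1 replicates 1, 2 and 3, and 20, 19 and 22 in control replicates 1, 2 and 3, and the groups overlapped. With the median taken over named genes instead of all rows, 5 members remained on every array.

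Just inside the line lay Ccl20, at 1.02 to 1.09 times the median over the 6 arrays, and 4 members were above it on 5 arrays, namely Ccl4, Ccr10, Cxcr2 and Cx3cl1. A clearer separation was present at 1.5 times the median, which 4 members passed on every array, namely Mif, Ccl5, Ccl25 and Cxcl10, against 39.7% of all named genes. The other 8 of the 12 came no higher than 1.53 times on any array. No detection calls accompany the values, so signals near the median cannot be told from background.

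**Figure D1:**
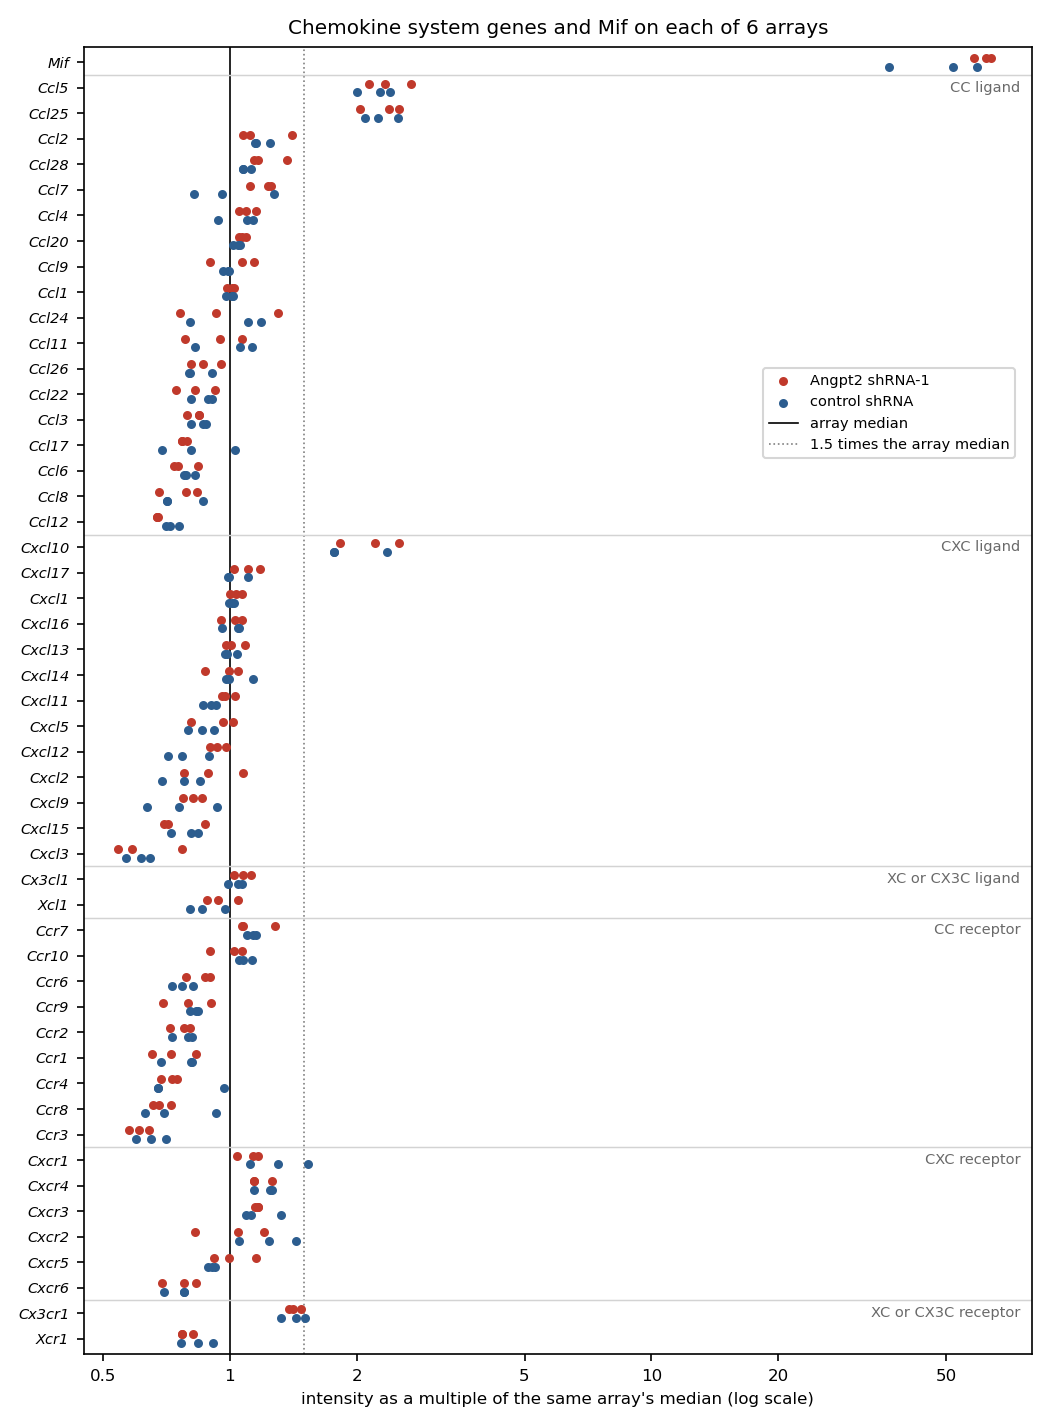
Intensity of the 51 genes as a multiple of the median of the same array (log scale), with 3 Angpt2 shRNA-1 arrays (red, upper points) and 3 control shRNA arrays (blue, lower points) per gene, grouped by class. Mif lies at 36.5 to 64.1 times the median, Ccl5, Ccl25 and Cxcl10 at 1.76 to 2.70 times, and the other genes scatter around the line at 1.

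Mif was by far the brightest signal of the set. Its intensity was 4357, 4659 and 4871 in Angpt2 shRNA-1 replicates 1, 2 and 3 and 3941, 2787 and 4519 in control replicates 1, 2 and 3. Control replicate 2 was the low array, and the groups overlapped because Angpt2 shRNA-1 replicate 1 lay below control replicate 3. On the log2 scale Mif averaged 12.17 ± 0.08 in Angpt2 shRNA-1 and 11.84 ± 0.36 in control cultures (SD, n = 3 each). The log2 fold change was 0.33 (SE 0.16, 95% interval -0.03 to 0.69) and did not pass the test (limma adjusted p = 1.00). Cultures with the same replicate number differed by 0.14, 0.74 and 0.11, and without control replicate 2 the value was 0.13. Mif lay between the 99.1st and 99.8th percentile of named genes on every array. RefSeq names 3 Mif pseudogenes in mouse, none with a row of its own here, and signal from such copies cannot be told from that of Mif. Since each value is the RNA of a whole culture, fewer expressing cells and less RNA per cell cannot be told apart here or for any gene below.

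Among CXC ligands only Cxcl10, an interferon-inducible attractant of activated T cells that acts on Cxcr3, stood clear of the median. Its intensity was 188, 165 and 138 in Angpt2 shRNA-1 replicates 1, 2 and 3, against 178, 135 and 134 in control replicates 1, 2 and 3. Replicate 1 was the high array in both groups, and the groups overlapped. The log2 fold change was 0.14 (SE 0.15, 95% interval -0.19 to 0.47, limma adjusted p = 1.00), and 0.03 without Angpt2 shRNA-1 replicate 1. The other ligands of Cxcr3, which lie beside Cxcl10 in the genome, had no such signal. Cxcl9 ranged from 48.5 to 70.7, below the median on every array, and Cxcl11 from 65.9 to 76.8, above it on 1 array.

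Ccl5, a T cell and monocyte attractant also known as RANTES, had intensities of 201, 175 and 162 in Angpt2 shRNA-1 replicates 1, 2 and 3 and 182, 152 and 173 in the control replicates. As for Cxcl10, replicate 1 was the highest array of each group, and the groups overlapped. Its log2 fold change was 0.08 (SE 0.11, 95% interval -0.16 to 0.33), and within 0.01 of 0 without Angpt2 shRNA-1 replicate 1. Ccl25, the ligand of Ccr9 that guides thymocytes and gut-homing lymphocytes, had 188, 179 and 155 in Angpt2 shRNA-1 cultures and 159, 171 and 191 in control cultures. Replicate 3 was the lowest of the Angpt2 shRNA-1 arrays and the highest of the control arrays, and the groups overlapped. The log2 fold change of Ccl25 was 0.00 (SE 0.11, 95% interval -0.24 to 0.24). Both genes had a limma adjusted p = 1.00.

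**Figure D2:**
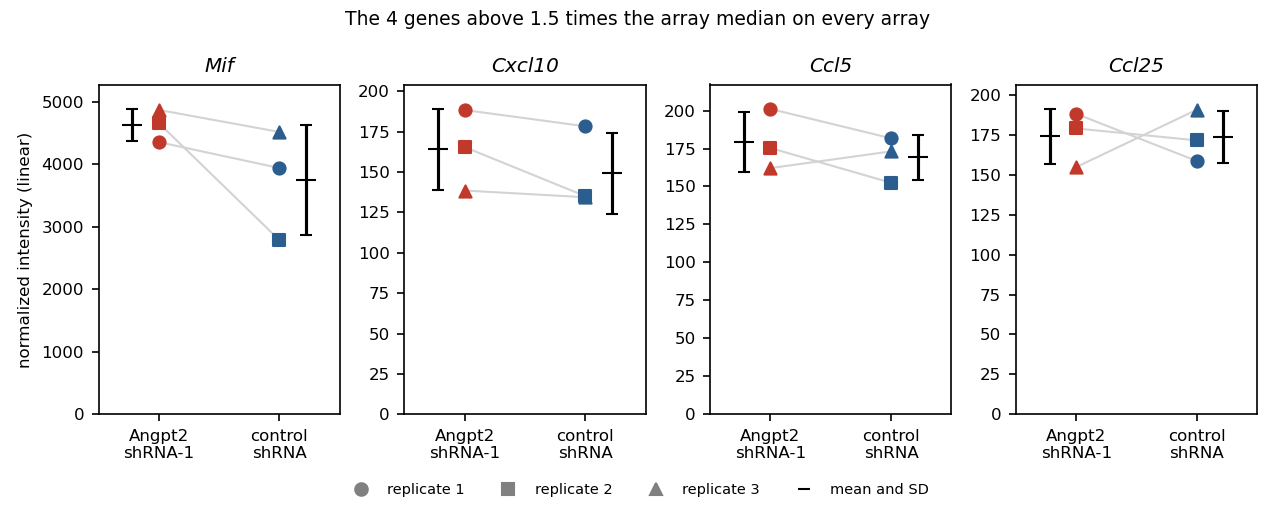
Normalized intensity (linear axes from 0) of Mif, Cxcl10, Ccl5 and Ccl25 in the 3 Angpt2 shRNA-1 and 3 control shRNA cultures, with symbols for the replicate number, lines joining equal numbers, and bars for the mean and SD (n = 3). The groups overlap for all 4 genes, and the lowest Mif value, 2787, is control replicate 2.

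The remaining ligands above the median on every array stayed close to it. Ccl2, the main attractant of monocytes, had intensities of 105, 80.4 and 85.0 in Angpt2 shRNA-1 and 94.0, 87.9 and 87.4 in control cultures, a log2 fold change of -0.0045 (SE 0.11). Ccl20, the ligand of Ccr6, had 78.3, 81.8 and 81.4 in Angpt2 shRNA-1 and 77.0, 79.8 and 80.4 in control cultures (0.03, SE 0.08). For both, the groups overlapped. Ccl28, a mucosal ligand of Ccr10, had 87.0, 85.5 and 104 in Angpt2 shRNA-1 and 81.1, 81.8 and 85.5 in control cultures (0.15, SE 0.10). All 3 Angpt2 shRNA-1 arrays were above all control arrays for Ccl28, by a margin of less than 1 unit between the nearest arrays, and without Angpt2 shRNA-1 replicate 3 the value was 0.06.

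The next ligands, often studied in the tumour field, lay around or below the line, and none was above it on all 6 arrays. Ccl4 and Cx3cl1 were above it on 5 arrays and Cxcl16 on 4. The neutrophil attractants Cxcl1, Cxcl2, Cxcl3 and Cxcl5 spanned 40.4 to 81.5, with Cxcl1 above the median on 4 arrays, Cxcl2 and Cxcl5 on 1 each and Cxcl3 on 0. Ccl3 lay between 60.1 and 67.0 and Ccl4 between 71.4 and 86.7. Both are inflammatory attractants of macrophages and T cells. The Ccr4 ligands Ccl17 and Ccl22, which attract regulatory T cells, lay between 52.6 and 77.9 and between 56.0 and 70.0. Cxcl16 and Cx3cl1, the ligands that are made as membrane proteins and shed, had 71.5 to 80.04 and 74.9 to 85.5.

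The other ligands, given here with the receptor Xcr1, also lay around or below the median. Among the Ccr3 ligands, which attract eosinophils, Ccl11 lay between 58.5 and 85.9, Ccl24 between 57.2 and 98.7 and Ccl26 between 61.1 and 71.1. The monocyte attractants Ccl8, Ccl6 and Ccl9 lay at 51.7 to 66.0, 55.0 to 64.0 and 67.0 to 85.6, and Ccl1, the Ccr8 ligand, at 73.7 to 77.8. Cxcl13, which guides B cells through Cxcr5, lay between 73.3 and 82.3. Cxcl14 and Cxcl17, ligands of skin and mucosa, had 66.4 to 86.3 and 74.8 to 89.6, and Cxcl15, a mouse lung chemokine, had 52.4 to 66.4. Of the XC pair, the lymphocyte product Xcl1 had 61.1 to 79.3 and its dendritic cell receptor Xcr1 57.4 to 69.7. Of these 13 genes none was above the median on all 6 arrays, and Ccl24 had the widest spread.

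Of the 17 receptors 5 stood above the median on every array and 9 on none, against 6 and 10 of the 33 ligands other than Mif. Cxcr4, the receptor of Cxcl12, had intensities of 94.1, 85.7 and 86.8 in Angpt2 shRNA-1 and 94.4, 95.8 and 86.8 in control cultures (log2 fold change -0.06, SE 0.09). Its ligand Cxcl12 was below the median on every array in both groups. Cxcr3, which binds Cxcl10, had 87.0, 86.2 and 88.8 in Angpt2 shRNA-1 and 99.8, 85.4 and 83.2 in control cultures (-0.03, SE 0.09). Cx3cr1, the receptor of Cx3cl1, had 105, 110.3 and 105 in Angpt2 shRNA-1 and 108, 101 and 115 in control cultures (-0.02, SE 0.09). Ccr7, which guides cells to lymph nodes, had 95.6, 80.01 and 81.5 in Angpt2 shRNA-1 and 85.7, 83.8 and 87.9 in control cultures (-0.01, SE 0.09). The groups overlapped for these 4 receptors, and each had a limma adjusted p = 1.00.

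Cxcr1 and Cxcr2, receptors of the neutrophil attractants, had the most negative values of the set. Cxcr1 had intensities of 77.6, 87.5 and 86.1 in Angpt2 shRNA-1 and 116, 99.3 and 84.9 in control cultures (log2 fold change -0.25, SE 0.12, limma adjusted p = 1.00). Cxcr2, which also binds Mif, had 90.0, 78.5 and 63.0 in Angpt2 shRNA-1 and 108, 80.2 and 94.3 in control cultures (-0.29, SE 0.15, limma adjusted p = 1.00). Control replicate 1 was the highest array for both genes, and the groups overlapped for both. Without that array Cxcr1 was at -0.14 and Cxcr2 at -0.19, and without Angpt2 shRNA-1 replicate 3, its lowest array, Cxcr2 was at -0.16.

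Ligand and receptor could be set side by side for the brighter ligands. Ccr9, the receptor of Ccl25, was below the median on every array, between 52.7 and 67.3. The Ccl5 receptors Ccr1 and Ccr3 were also below it on every array, at 49.1 to 63.3 and 43.3 to 53.8. The CC receptors Ccr2, Ccr4, Ccr6 and Ccr8, which respond to Ccl2, to Ccl17 and Ccl22, to Ccl20 and to Ccl1, were below it as well, with values of 48.1 to 74.0. Cxcr5 and Cxcr6, the receptors of Cxcl13 and Cxcl16, were above it on 1 and on 0 arrays.

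The comparison of Angpt2 shRNA-1 with control shRNA over the whole set gave no member that passed the test. The limma fit called 0 of 51 members at an adjusted p of 0.05, against 0 of 22180 genes (0%). At an unadjusted p under 0.05 there was 1 member, against 3.76% of all genes. This was Cxcl12, singled out here after its values were seen, with intensities of 67.0, 73.5 and 70.7 in Angpt2 shRNA-1 and 67.5, 58.8 and 54.2 in control cultures (log2 fold change 0.23, SE 0.10). Its limma adjusted p was 1.00, and the groups overlapped because Angpt2 shRNA-1 replicate 1 lay below control replicate 1.

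The groups did not overlap for 4 of the 51 members, against 9.01% of all genes. Ccl28, given above, and Cxcl11 were higher on all 3 Angpt2 shRNA-1 arrays, against 3.53% of all genes in that direction. Cxcl11 had 76.8, 73.0 and 72.6 in Angpt2 shRNA-1 and 68.2, 65.9 and 70.5 in control cultures (log2 fold change 0.12, SE 0.08). Ccr10 and Ccl12 were lower on all 3, against 5.48% of all genes. Ccr10, the receptor of Ccl28, had 79.5, 76.5 and 68.1 in Angpt2 shRNA-1 and 85.6, 80.1 and 81.7 in control cultures (-0.15, SE 0.09), and its value was -0.080 without Angpt2 shRNA-1 replicate 3. Ccl12, a mouse monocyte attractant related to Ccl2, had 50.04, 50.3 and 51.3 in Angpt2 shRNA-1 and 57.3, 53.9 and 55.0 in control cultures (-0.13, SE 0.08). Each of the 4 had a limma adjusted p = 1.00 and an exact two-sided permutation p of 0.1, the smallest that 3 against 3 arrays can give.

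Over the 51 members the log2 fold change ranged from -0.29 for Cxcr2 to 0.33 for Mif. The second highest value, 0.24 (SE 0.15), was that of the monocyte attractant Ccl7, which had 93.3, 83.7 and 93.5 in Angpt2 shRNA-1 and 62.3, 73.0 and 96.8 in control cultures, and it was 0.10 without control replicate 1. The median over the members was -0.01, as it was over all genes (-0.01). Within replicate numbers 1, 2 and 3 the median difference of the members was 0.00, -0.03 and 0.04. The 95% interval stayed within 1.5-fold in either direction for 49 of the 51 members, and Mif and Cxcr2 were the exceptions. These intervals describe signal. For members near or below the array median, which cannot be told from background, they do not bound a change of transcript.

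Positive log2 fold changes numbered 24 of 51, against 45.2% of all genes. They were 20 of 33 among ligands other than Mif, with a median of 0.02, and 3 of 17 among receptors, with a median of -0.07. The difference between ligands and receptors was not tested. After quantile normalization, which moved the share of all genes with a positive value to 52.1%, the counts were 23 of 33 for ligands and 5 of 17 for receptors. With 1 array left out, 2 to 5 receptors were positive. Summed intensity of the 33 ligands was 2673, 2608 and 2688 in Angpt2 shRNA-1 replicates and 2626, 2551 and 2590.5 in control replicates 1, 2 and 3. That of the 17 receptors was 1219, 1172 and 1169 in Angpt2 shRNA-1 replicates and 1294, 1240.1 and 1207 in control replicates. Both sums overlapped between groups. Cultures of the same number were also compared, a pairing that the labels do not state. The ligand sum was higher and the receptor sum lower with Angpt2 shRNA-1 for 3 of 3 numbers. The array median over all rows was lower with Angpt2 shRNA-1 for 3 of 3 numbers too. It was 74.58, 74.99 and 76.03 in replicates 1, 2 and 3, against 75.67, 76.31 and 76.13 in control replicates. The sums were not scaled to the array median, and the part of this offset in the lower receptor sums was not tested. Both sums include genes below the array median on every array, 10 of the 33 ligands and 9 of the 17 receptors. Such signals cannot be told from background. The median log2 difference within numbers 1, 2 and 3 was 0.01, 0.0025 and 0.04 for the ligands and -0.01, -0.07 and -0.01 for the receptors. These differences were not tested, since the genes were chosen with results known.

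**Figure D3:**
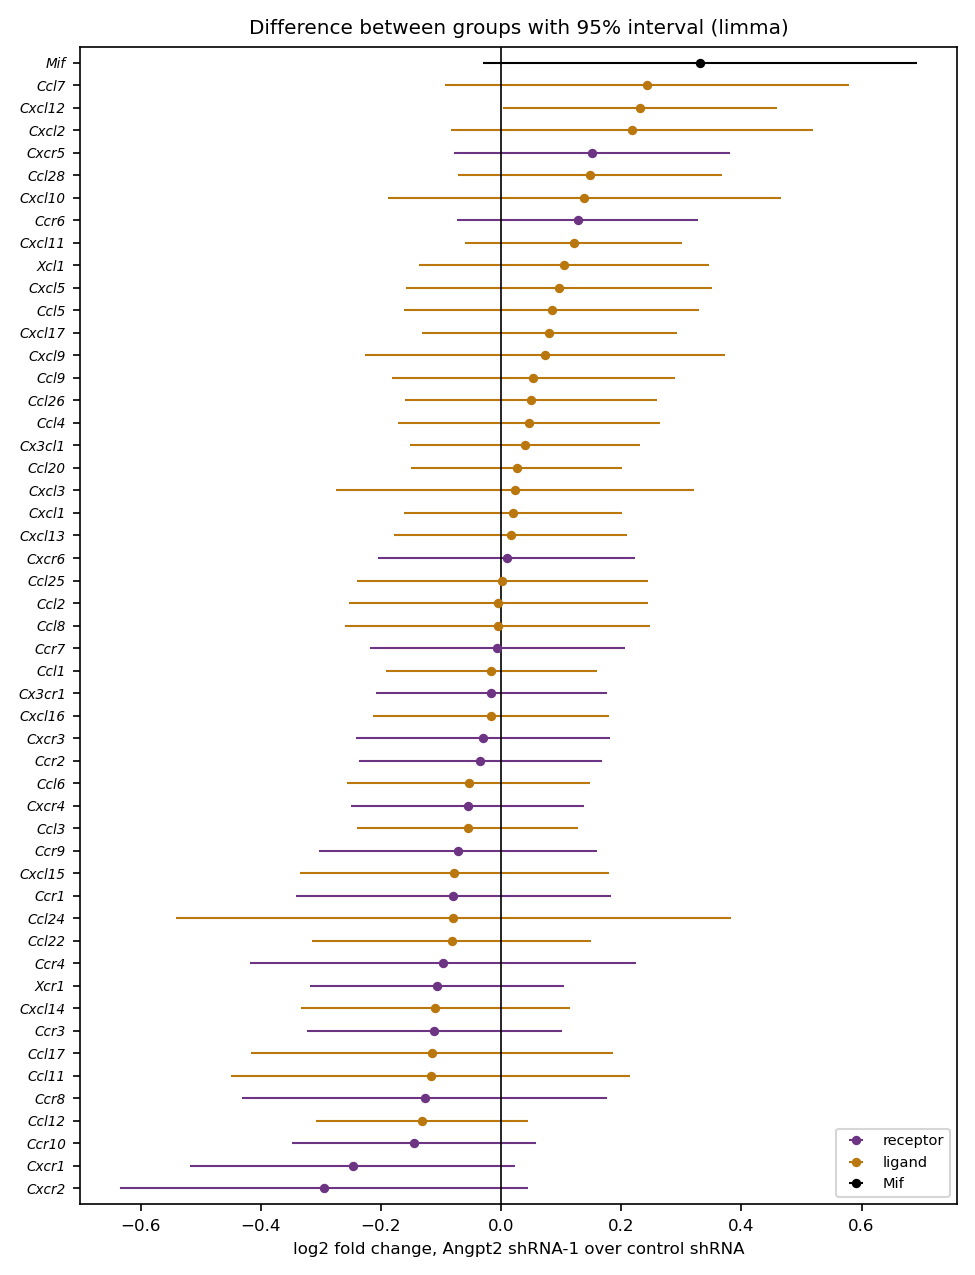
Log2 fold change of each of the 51 genes, Angpt2 shRNA-1 over control shRNA, with 95% intervals from the limma fit (n = 3 arrays per group), coloured as ligand, receptor or Mif. The interval of Cxcl12 lies just above 0, all others include 0, and no gene passed after adjustment over all genes.

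Genes that act with chemokines and Mif were taken from 6 lists holding 72 genes, of which 65 were measured. Of these 0 were called by limma, against 0% of all genes. An unadjusted limma p under 0.05 was present for 3, against 3.76% of all genes, and 6 did not overlap between groups. The last count, which ignores direction, is a share close to the 9.01% of all genes. Of these 6 genes, Cops5, Gnai3, Nfkb2, Dpp4 and the NF-kB gene Nfkbie were higher on all 3 Angpt2 shRNA-1 arrays, and Adam10 was lower. Over all genes 3.53% were higher and 5.48% lower. The direction of these 6 genes was not tested, and no result is read from so few, on lists chosen with earlier results known. Positive values numbered 33, with a median log2 fold change of 0.02. In contrast with the ligands and receptors, 46 of the 65 stood above the array median on all 6 arrays, against 51.2% of all named genes.

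The 3 measured partners of Mif, a list that also held its receptor Cd74, all stood above the median on every array. Cops5, an intracellular binding partner of Mif, had intensities of 1037, 1032 and 1006 in Angpt2 shRNA-1 and 973, 936 and 996 in control cultures (log2 fold change 0.08, SE 0.08), with no overlap. Ddt, the homologue of Mif, had 422, 336 and 352 in Angpt2 shRNA-1 and 429.7, 343 and 401 in control cultures, and the coreceptor Cd44 had 115, 118 and 198 in Angpt2 shRNA-1 and 107, 178 and 162 in control cultures. The groups overlapped for Ddt and Cd44. Of 6 atypical or scavenging receptors 2 stood above the median on every array. These were Ackr2, a scavenger of inflammatory CC ligands, and Ackr3, a scavenger of Cxcl12, while Pitpnm3, described in human as a chemokine receptor, had the largest value (0.19, SE 0.12). That value rested on single control arrays, at 0.059 without control replicate 2 and 0.30 without control replicate 3.

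Of 18 measured genes of receptor signal transduction 14 stood above the median on every array. The largest value was that of Gnai3, an inhibitory G protein alpha subunit, with 716, 763 and 699 in Angpt2 shRNA-1 and 602, 611 and 635 in control cultures (log2 fold change 0.24, SE 0.08), without overlap and with a limma adjusted p of 1.00. Among signalling genes known mainly from leukocytes, Rac2, Plcb2 and Pik3r5 were above the median on every array, at 75.2 to 124, Vav1 on 4 arrays, and Dock2 and Pik3cg on 0. Of 15 measured NF-kB genes, regulators of many chemokine promoters, 14 stood above it on every array, and Nfkb2 had 349.6, 307 and 309.8 in Angpt2 shRNA-1 and 299, 252 and 251 in control cultures (0.27, SE 0.10, limma adjusted p = 1.00), again with no overlap.

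Of 13 measured genes for shedding, cleavage and heparan sulfate 11 were above the median on every array, among them Adam10 and Adam17, the proteases that release Cx3cl1 and Cxcl16. The largest value, 0.24 (SE 0.08), was that of Dpp4, a peptidase that trims chemokines, whose signals of 51.3 to 64.1 lay below the median on every array. Of 10 cytokines that induce chemokines 2 stood above it on every array, Csf1 and Csf3. Csf1, the macrophage growth factor, had 169, 164 and 157 in Angpt2 shRNA-1 and 133, 159 and 137 in control cultures (0.19, SE 0.09), with overlap. Tnf, Il1a, Il1b, Il6 and Ifng were each above it on 2 arrays or fewer.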

How the data were processed

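RNA of 6 RET cell cultures was hybridised to Affymetrix Mouse Gene 2.0 ST arrays, from 100 ng of RNA, per the labels' protocols. The authors deposited normalized intensities in linear units. Background correction, probe summary, normalization and the annotation build are not given in the sources used here. Of 41345 rows 40425 had a value on all arrays. Rows with 1 gene symbol were kept, using for 1082 genes the row with the highest mean over the 6 arrays, which left 22180 genes. All 51 members' gene IDs carried the same symbol in the mouse RefSeq table. The array median was taken over the 40425 complete rows.

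Intensities were put on the log2 scale with no pseudocount added. The 2 groups were compared in limma 3.58.1 under R 4.3.3 (lmFit, then eBayes). The Benjamini-Hochberg method adjusted the two-sided p-values over all 22180 genes, with 0.05 as the threshold. The fit was tested on simulated data with the real means and spreads, in which 200 genes were changed at once. Of 100 genes changed by 1 log2 unit 81% were called among 22180, and of 100 changed by 2 units 98%. The adjustment is less strict when many genes change. The 81% therefore does not give the power in these data, where 0 genes were called. Fold changes are Angpt2 shRNA-1 over control shRNA. Precision is limited by having 3 arrays per group. The members and gene lists were chosen with earlier results of these data known. Fold changes were given for members above the array median on all arrays or with no overlap between groups, and for the largest value of each partner list. Cxcl12, Ccl7 and Cxcr2 were added after their values were seen.

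Both groups have replicates 1, 2 and 3, which the labels call biological replicates. Across genes, deviations of same-numbered cultures from the mean of their group had correlations of 0.13, 0.21 and 0.14. Cultures of different numbers had -0.19 to 0.06. Deviations within a group cancel, so these correlations are not independent of each other. The labels do not state a pairing. The main fit therefore had no block, and a fit with the replicate number as a block was an alternative. Other alternatives were quantile normalization, median centring, a level filter, the mean of all rows of a gene, trend and robust options, array weights, a pseudocount of 16, and leaving out each array. Rows with several symbols were left out of the members.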

Additional observations from a re-analysis of the deposited data

How the results depend on the processing

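No member passed in any of these fits, the lowest limma adjusted p of a member being 0.828. A block over the replicate numbers called 2 of all genes, against 0 without it. The limma adjusted p of Angpt2 was then 0.046 at an unchanged log2 fold change of -1.33. The block changed no call of a member (lowest adjusted p 0.997). Quantile normalization, median centring, and trend and robust options each called 1 gene. Leaving out 1 array in turn gave 0 to 2 called genes, the 2 without control replicate 2, and put Angpt2 between -1.61 and -1.14, with the adjusted p of 0.0116 without control replicate 1. Of the members, 5 stood above the median of named genes on all arrays and 1, Mif, above the 75th percentile, against 12 above the median of all rows. With 1 array left out that count was 12 to 14. Among the 9 members left by the level filter 4 were positive. Leaving out 1 array gave 21 to 27 positive members and a member median between -0.02 and 0.00. Of 325 values of single genes under alternatives 305 kept their direction and side of the threshold. The 20 that changed sign belonged to 6 genes whose log2 fold changes were 0.08 or less in size. Ccl2 was at 0.014 after quantile normalization, 0.011 after median centring and 0.013 with array weights. Ccr7 was at 0.013 after quantile normalization and 0.0098 after median centring, Cx3cr1 at 0.00017 after quantile normalization, and Ccl25 at -0.012 with array weights. With 1 array left out Ccl2 lay between -0.12 and 0.073, Ccl25 between -0.061 and 0.084, Ccl5 between -0.00048 and 0.15, Ccr7 between -0.087 and 0.041, Cxcr3 between -0.081 and 0.050 and Cx3cr1 between -0.065 and 0.029. The causes were not tested. Without detection calls, what dim signals can show is limited.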

Other observations

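Chemokine genes outside the symbol rule gave further values. The platelet chemokines Pf4 and Ppbp, which carry no Cxcl symbol, were below the array median on every array, as was the receptor-like gene Ccr1l1. Ackr3, the scavenger of Cxcl12, had intensities of 119, 85.5 and 130 in Angpt2 shRNA-1 replicates 1, 2 and 3 and 97.6, 89.5 and 135 in control replicates 1, 2 and 3. Replicate 2 was the lowest array in both groups. The skin chemokine Ccl27a had 81.3, 79.4 and 82.7 in Angpt2 shRNA-1 and 76.5, 67.4 and 80.6 in control cultures on its brighter row, and the groups overlapped.

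Rows shared by several near-identical gene copies could not be named. Those whose symbols include copies of the skin chemokine of the CCL27 family numbered 11, of which 8 stood above the median on all 6 arrays, with a highest intensity of 213. Of 13 rows that include CCL19 copies 6 did, with a highest intensity of 109.7, and of 9 rows that include CCL21 copies 9 did, with a highest intensity of 112.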
